A study of Mus musculus with 6 samples.

Results

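The 10 transcription regulators described here set the identity of germinal center (GC) B cells or of the plasma cells that leave the GC: Bcl6, Bach2, Mef2b, Mef2c, Irf8, Irf4, Pou2f1, Pou2f2, Pou2af1 and Prdm1. They were chosen by name, as the 10 of 39179 gene rows whose Ensembl identifier carries one of these symbols, and all 10 passed the expression filter of at least 1 TPM (a transcript abundance corrected for length and scaled to the same total in every pool) in at least 3 pools, so that none was left out. RNA-Seq was done on B cells sorted from the Peyer's patches of the ileum, lymphoid follicles in which gut antigens keep GCs active in unimmunized mice. GC B cells (Fas+GL7+) and resting, or naive, B cells (Fas-GL7-) came from wild-type female C57BL/6 littermates aged 12 weeks, with 3 pools of 5 mice for each population. No allele or treatment distinguished the groups, and because Fas was used for sorting, its level is not a result.

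GC B cells divide, mutate their antibody genes and are selected by antigen, and BCL6 is the repressor without which GCs do not form. BACH2 is a repressor that holds back the plasma cell program, and BLIMP-1, the product of Prdm1, is the repressor that installs it. IRF8 and IRF4 are related DNA-binding proteins: IRF8 acts in GC B cells with the ETS factors PU.1 and SPI-B, whereas IRF4 at high level drives plasma cell differentiation. MEF2B and MEF2C are MADS-box factors of B cells, and MEF2B is a known activator of BCL6 transcription. The octamer-binding factors OCT1 (Pou2f1) and OCT2 (Pou2f2) recruit the coactivator OCA-B (Pou2af1), which is required for GC formation.

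The labels matched the sorted cells. The 7 GC markers on the list used here summed to between 1577 and 1603 TPM among GC pools and to between 5.86 and 8.13 TPM among naive pools, and all 7, with Fas among them, were higher in GC pools. The 6 naive markers were all lower in GC pools. The 7 B cell markers summed to between 4406 and 4446 TPM among GC pools and to between 6577 and 6784 TPM among naive pools. The 8 T cell markers were all under 2 TPM in every pool. The 7 epithelial markers summed to between 37.0 and 71.0 TPM among GC pools and to between 110.4 and 138.6 TPM among naive pools, and the 8 myeloid and dendritic cell markers to between 32.8 and 35.8 TPM against between 6.64 and 9.88 TPM. Nearly all of the myeloid signal in GC pools was Flt3, a receptor kinase at between 29.6 and 32.9 TPM. The part of such other cells in the results was not tested. Read depth, inferred from the spacing of low values, was about 9800000 to 16000000 reads per pool. In pools of sorted cells, fewer cells that carry a transcript and less of it per cell cannot be told apart.

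Because the MEF2B result depends on which gene model a read is assigned to, the sequences behind it are shown first. The first 120 coding bases of Mef2b and Mef2c encode the start of the DNA-binding domain of each protein and were 78.3% identical (GENCODE M1 transcripts, 5′ to 3′). Capitals mark the 26 bases that differ between both genes:
Mef2b: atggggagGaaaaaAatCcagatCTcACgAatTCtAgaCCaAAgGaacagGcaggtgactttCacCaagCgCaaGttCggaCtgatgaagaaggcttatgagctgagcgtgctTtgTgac
Mef2c: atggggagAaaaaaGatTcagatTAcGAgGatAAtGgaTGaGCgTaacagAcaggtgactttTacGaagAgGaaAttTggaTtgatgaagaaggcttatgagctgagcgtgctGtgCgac
In the same annotation, the gene model 2310045N01Rik (ENSMUSG00000002345) had 7 coding transcripts, and 3 of them held a complete Mef2b coding sequence of identical bases. RefSeq knows this gene as Borcs8 (GRCm38.p6, chr8:70139499-70148635), and there it ends 4125 bases before Mef2b begins (chr8:70152761-70167488). Of the 1437 distinct 50-base words in the Mef2b transcripts, 1390 (96.7%) also occurred in 2310045N01Rik. Only protein-coding transcripts were searched. For 8 of the other members no such word occurred in a coding transcript of any other gene, and for Bach2 0.401% did. Thus, among the coding transcripts of that annotation, Mef2b is the only member of which almost no read of that length can be assigned to its own gene model alone. Sharing with noncoding gene models was not tested.

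The comparison of GC with naive B cells was made on log2(TPM + 1) with limma over 12785 genes. Of the 10 members, 6 were higher in GC B cells (Bcl6, Bach2, Mef2b, Pou2af1, Pou2f1 and Prdm1), 1 was lower (Irf4) and 3 did not pass an adjusted p of 0.05 (Irf8, Mef2c and Pou2f2). Over all genes tested, 35.5% were called higher and 30.1% lower. The 3 GC pools and the 3 naive pools did not overlap for 8 of the 10 members, against 70.7% of all genes tested. The median log2 fold change of the members was 0.92, and that of all genes tested was 0.03. Most genes were called in this comparison, so that a call alone sets a member little apart, and the description rests on levels and sizes. The counts given for gene lists below are likewise to be read beside these shares.

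**Figure D1:**
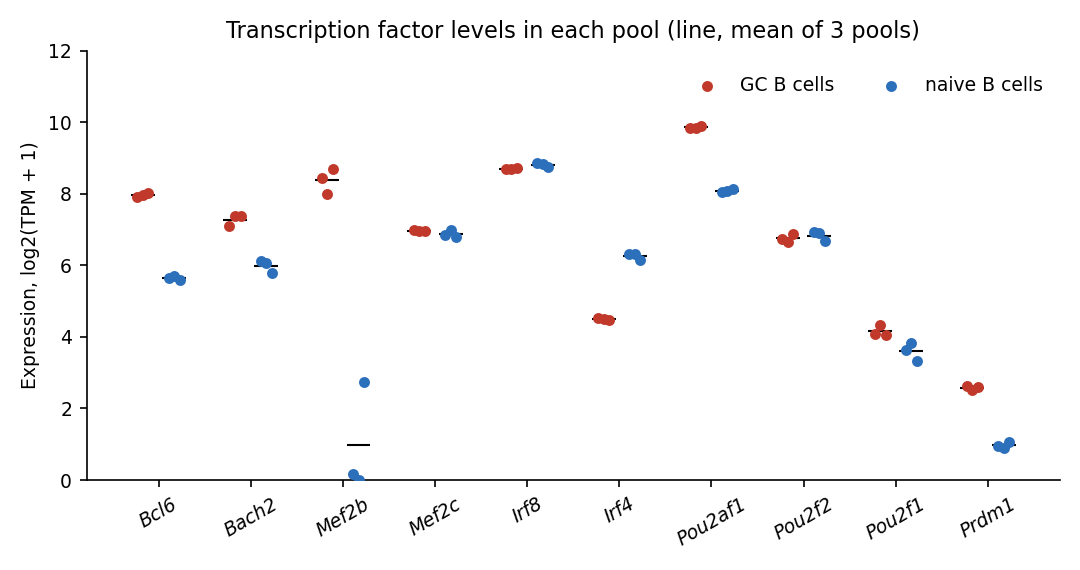
Level of each of the 10 regulators in every pool, as log2(TPM + 1) on the y axis, with the 3 GC pools in red, the 3 naive pools in blue and a black line at each mean. Bcl6, Bach2, Mef2b, Pou2af1, Pou2f1 and Prdm1 sit higher in GC pools and Irf4 sits lower, whereas the Mef2c and Pou2f2 pools overlap.

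In GC B cells, Pou2af1 had the highest level of the 10 at 925 TPM, followed by Irf8, Mef2b, Bcl6, Bach2, Mef2c, Pou2f2, Irf4, Pou2f1 and Prdm1 at 5.01 TPM. Neighbours in this order did not overlap between pools except Irf8 with Mef2b and Mef2b with Bcl6. In naive B cells the order was Irf8 at 448 TPM, Pou2af1, Mef2c, Pou2f2, Irf4, Bach2, Bcl6, Pou2f1, Mef2b and Prdm1 at 0.955 TPM, and the neighbours whose pools overlapped were Mef2c with Pou2f2 and Mef2b with Prdm1. By this count Pou2af1 and Irf8 held the first 2 places in both populations, in opposite order, and Bcl6 and Bach2 stood above Irf4 only in the order of GC B cells. These orders count Mef2b by its own gene model. The sum of Mef2b and the overlapping model had a mean of 674 TPM in GC B cells, above Irf8. In naive B cells the mean of the sum was 93.5 TPM, between Pou2f2 and Irf4. This sum also counts transcripts of 2310045N01Rik without a complete Mef2b coding sequence, so it is not the level of Mef2b alone. These orders are a description without a test.

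Bcl6 (ENSMUSG00000022508; chr16:23965050-23988866, GRCm38.p6) encodes the zinc-finger repressor at the center of the GC program. Its level was 242, 249.6 and 258 TPM in GC replicates 1, 2 and 3 and 49.0, 51.6 and 46.9 TPM in naive replicates 1, 2 and 3. The populations were far apart, and the naive cells were not devoid of the transcript. The means were 249.8 ± 8.14 and 49.2 ± 2.33 TPM (SD, n = 3 pools), a 5.08-fold difference, with a log2 fold change of 2.32 (SE 0.05, 95% interval 2.19 to 2.45, adjusted p = 3.3e-07). By size this was a large but not an extreme change, since 571 of the 12785 genes had a larger log2 fold change. The 3 genes whose log2(TPM + 1) lay nearest to that of Bcl6 over the 6 pools were 2700029M09Rik (root mean square distance 0.12), Tk1 (0.14), a thymidine kinase, and Dnmt1 (0.17), the maintenance DNA methyltransferase. Such a distance mostly reflects the mean levels in both populations, so it does not show that these genes vary together with Bcl6.

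BCL6 works through corepressors, which were tested as a list of 14 genes of which 12 passed the filter. Of these, 6 were higher in GC B cells, 1 was lower and 5 were not called, with a median log2 fold change of 0.28. The shares over all genes tested were 35.5% higher and 30.1% lower. The largest increases were Tbl1x (0.75, adjusted p = 0.00012) and Hdac3 (0.67, adjusted p = 4.7e-05), subunits of the NCOR and SMRT complexes, and the member that fell was Gps2 (-0.49, adjusted p = 0.0012), another subunit of them. Ctbp1, a corepressor recruited by BCL6, had the highest level of the list, at 214 ± 6.39 TPM in GC against 171 TPM in naive B cells (log2 fold change 0.32, adjusted p = 0.00046). These changes were small beside that of Bcl6. Among the ubiquitin ligases of BCL6 and OCA-B, 2 of 4 were higher and 2 lower: Siah2 rose by 2.35 and Siah1b by 1.41 on the log2 scale, and Siah1a and Fbxo11, the ligase that targets BCL6, fell by 0.37 and 0.34 (adjusted p between 1.2e-05 and 0.031).

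Genes known from earlier work as BCL6 targets for repression did not move as a block. Of 19 genes, 18 were tested, of which 8 were higher in GC B cells, 9 were lower and 1 was not called. Their median log2 fold change was -0.34. The shares over all genes tested were 35.5% higher and 30.1% lower. The largest decreases were S1pr1 (-5.32, from 222 to 4.57 TPM), the receptor for exit into lymph, and Gpr183 (-5.26, from 86.2 to 1.30 TPM), a receptor that guides B cells to the follicle edge. Opposite to the name of the list, Chek1, a kinase of the DNA damage checkpoint, rose from 2.39 to 55.7 TPM (log2 fold change 4.10) and Id2, an inhibitor of E proteins, from 3.04 to 12.5 TPM (1.75). The others of this direction, named after their values were seen, were Prdm1, Cd80, Bcl2l1, Cd44, Cdkn1a and Trp53, with log2 fold changes between 0.36 and 1.65. Averaged over all 6 pools, Trp53 had the highest level of the list, at 189.8 TPM in GC against 148 TPM in naive B cells.

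Bach2 (ENSMUSG00000040270; chr4:32238413-32586109) was at 135, 164 and 166 TPM among GC pools and at 68.6, 66.0 and 54.5 TPM among naive pools. Every GC pool was above every naive pool, and GC replicate 1 was the lowest of its group. The means were 155 ± 17.5 and 63.0 ± 7.48 TPM (SD, n = 3), a 2.46-fold difference with a log2 fold change of 1.29 (SE 0.12, 95% interval 1.004 to 1.57, adjusted p = 0.00012). The Bcl6 to Bach2 ratio lay between 1.52 and 1.79 in GC pools and between 0.714 and 0.861 in naive pools, so that Bach2 was the higher of the 2 repressors in naive cells and Bcl6 in GC cells. The difference of this log2 ratio was 1.03 with an exact permutation p of 0.1, which is the smallest that 3 against 3 pools allow.

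Among BACH2 and its family and dimer partners, 7 genes were tested. Bach2 was the only one called higher in GC B cells, 4 were called lower and 2 were not called. Bach1, the other BACH repressor, fell from 8.71 ± 0.968 to 1.96 ± 0.173 TPM (log2 fold change -1.71, adjusted p = 3.7e-05), and Mafk, a small MAF protein that dimerizes with either, from 38.6 to 18.1 TPM (-1.05, adjusted p = 4.3e-05). The Bach2 rows share their locus with 3 overlapping gene models, which were between 0.233 and 10.1 TPM in every pool.

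Mef2b (ENSMUSG00000079033) was at 347, 254 and 413 TPM among GC pools and at 0.121, 0 and 5.65 TPM among naive pools. The groups were far apart, but the GC pools spread widely, with a coefficient of variation of 23.6%. For the other 9 members in GC B cells it was between 1.11% and 11.3%. The log2 fold change was 7.41 (SE 0.72, 95% interval 5.66 to 9.16, adjusted p = 0.00016), and 5 genes had a larger one. No ratio of the means is given, because the gene is listed at 0 in naive replicate 2.

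The overlapping model 2310045N01Rik, which holds the same coding sequence, had 322, 420 and 267 TPM among GC pools and 91.1, 93.8 and 89.8 TPM among naive pools. It was highest in the GC pool in which Mef2b was lowest and lowest where Mef2b was highest. Their sum was 669, 674 and 680 TPM among GC pools and 91.3, 93.8 and 95.4 TPM among naive pools, and its coefficient of variation among GC pools was 0.771%. Mef2b took 51.9%, 37.7% and 60.8% of the sum in GC replicates 1, 2 and 3 and 0.133%, 0% and 5.93% in naive replicates 1, 2 and 3. For the sum, an alternative added after both values were seen, the log2 fold change was 2.84 (SE 0.04, 95% interval 2.75 to 2.92, adjusted p = 8.0e-08), or 7.21-fold. The sum also counts transcripts of 2310045N01Rik without a complete Mef2b coding sequence, so it does not give a fold change of Mef2b alone. The locus was higher in GC B cells either way, whereas the size of the difference depended on the model. How reads were divided between both models in these pools was not tested.

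**Figure D2:**
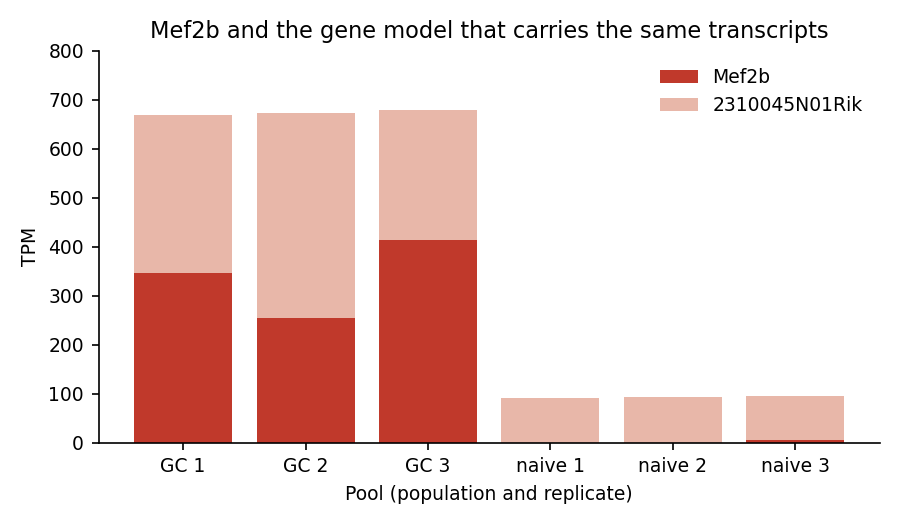
TPM (y axis) of Mef2b (dark) and of the overlapping gene model 2310045N01Rik (light), stacked for each of the 6 pools on the x axis. The summed height is between 669 and 680 TPM for the GC pools and between 91.3 and 95.4 TPM for the naive pools, whereas the dark part varies from 254 to 413 TPM among GC pools.

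Mef2c (ENSMUSG00000005583; chr13:83504017-83667079) was at 126, 124 and 124 TPM among GC pools and at 115, 126 and 109 TPM among naive pools, and the groups overlapped. The log2 fold change was 0.09 (SE 0.06, 95% interval -0.05 to 0.24, adjusted p = 0.22). The sign of this small value was not stable: quantile normalization gave -0.04 (adjusted p = 0.49), and without naive replicate 2 it was 0.15 (adjusted p = 0.039). Of the other MEF2 genes, Mef2d fell from 129.7 to 76.7 TPM (log2 fold change -0.75, adjusted p = 0.00017) and Mef2a from 23.7 to 19.5 TPM (-0.27, adjusted p = 0.015). As a share of the summed MEF2 family TPM, and counting Mef2b by its own model, Mef2b was at 59.9 ± 5.54% in GC and 0.738 ± 1.24% in naive B cells, Mef2c at 22.7 ± 3.44% and 42.9 ± 1.19%, and Mef2d at 13.9 ± 1.83% and 47.6 ± 0.357% (SD, n = 3). The log2 ratio of Mef2b to Mef2c differed by 7.32 between GC and naive pools, and by 2.74 with the overlapping model added to Mef2b (exact permutation p = 0.1 for each).

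MEF2 proteins are held in check by class IIa histone deacetylases and by CABIN1. The list of 7 genes tested also held Mapk7 and Mapk14, kinase genes that are not of this kind. Of the 7, 3 were higher (Hdac9, Hdac7 and Mapk7), 1 was lower (Hdac5) and 3 were not called. Mapk7 rose by 0.41 on the log2 scale (adjusted p = 0.016). Hdac9 rose from 12.7 to 37.1 TPM (log2 fold change 1.49, adjusted p = 6.0e-05) and Hdac7, the highest of the list at 136 ± 5.06 TPM in GC B cells, by 0.48 (adjusted p = 0.00032), while Hdac5 fell from 66.4 to 33.6 TPM (-0.96, adjusted p = 9.8e-06).

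Irf8 (ENSMUSG00000041515; chr8:120736358-120756694) was at 410, 416 and 422 TPM among GC pools and at 464, 454 and 426 TPM among naive pools. The ranges did not overlap, but GC replicate 3 and naive replicate 3 were only a few TPM apart. The means were 416 ± 5.67 and 448 ± 19.7 TPM (SD, n = 3), with a log2 fold change of -0.11 (SE 0.04, 95% interval -0.21 to 0.00014, adjusted p = 0.073). The value was called lower under another scaling of the pools, with log2 fold changes of -0.16 on FPKM as deposited, -0.24 after quantile normalization and -0.14 after median-of-ratios scaling (adjusted p = 0.0082, 0.0023 and 0.015), and at -0.14 without naive replicate 3 (adjusted p = 0.015). An overlapping model, Gm20388, was at 11.8 TPM in GC against 8.01 TPM in naive B cells.

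Irf4 (ENSMUSG00000021356; chr13:30749233-30766981) was at 22.1, 21.9 and 21.2 TPM among GC pools and at 79.6, 79.5 and 70.1 TPM among naive pools. It was the only member called lower in GC B cells, and no naive pool came near a GC pool. The means were 21.7 ± 0.485 and 76.4 ± 5.46 TPM (SD, n = 3), or 3.51-fold higher in naive cells, with a log2 fold change of -1.76 (SE 0.07, 95% interval -1.93 to -1.60, adjusted p = 2.5e-06). The Irf8 to Irf4 ratio was therefore between 18.5 and 19.9 in GC pools and between 5.72 and 6.08 in naive pools (difference of the log2 ratio 1.66, exact permutation p = 0.1, the smallest possible). Myeloid and dendritic cell markers other than Flt3 were under 6 TPM in every pool.

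Lower levels in GC B cells were common to the IRF genes. Of the 8 tested, 0 were higher in the limma fit and 6 were lower (Irf1, Irf2, Irf3, Irf4, Irf5 and Irf9). Irf7 and Irf8 were not called, and the median log2 fold change was -0.68. The shares over all genes tested were 35.5% higher and 30.1% lower. Irf9 fell from 75.7 to 25.5 TPM (-1.53, adjusted p = 4.1e-06) and Irf1, an interferon-induced activator, from 108 to 37.8 TPM (-1.49, adjusted p = 7.6e-06). The summed level of the family was 934 ± 9.36 TPM in GC against 1368 ± 36.2 TPM in naive B cells. Irf8 made up 44.6 ± 0.610% of it in GC and 32.8 ± 0.775% in naive B cells, and Irf4 2.33 ± 0.0681% and 5.58 ± 0.261% (SD, n = 3). Irf8 thus took a larger share of a smaller family sum in GC B cells, with no call for its own level.

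**Figure D3:**
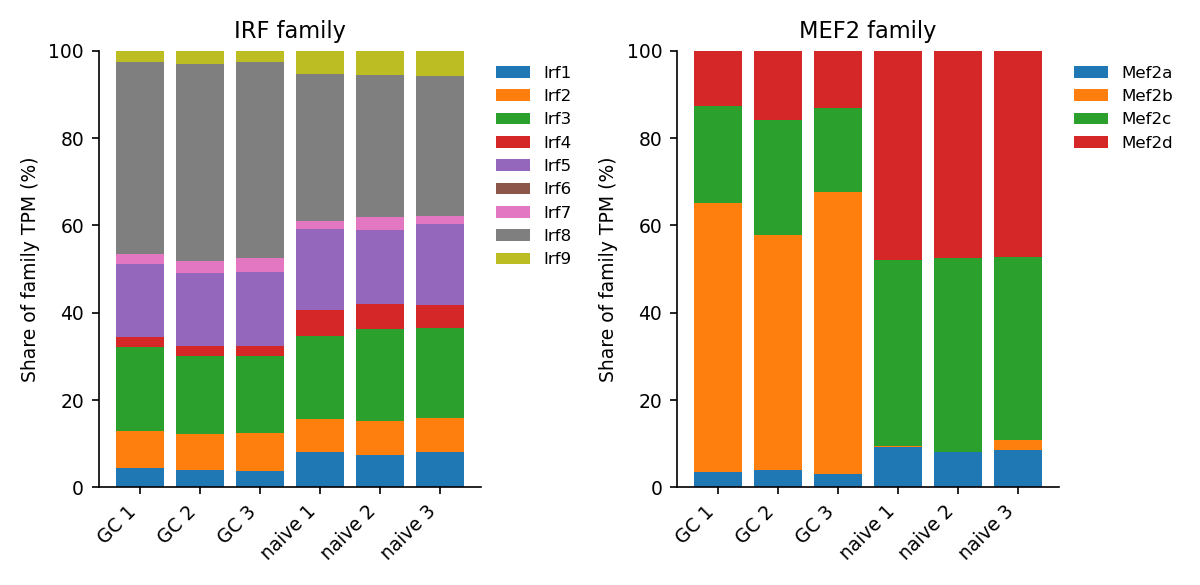
Share of the summed family TPM (y axis, percent) held by each IRF gene (left) and each MEF2 gene (right) in the 6 pools. Irf8 holds 44.6% on average in GC pools and 32.8% in naive pools, and Mef2b 59.9% and 0.738%.

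Of the proteins that pair with IRF4 and IRF8 on DNA, 7 of 9 were tested, and 2 were higher, 2 were lower and 3 were not called. Tcf3, the E protein E2A, rose from 149 to 322 TPM (log2 fold change 1.11, adjusted p = 1.8e-06) and Batf, an AP-1 partner of IRF4, from 21.0 to 38.2 TPM (0.85, adjusted p = 0.0021). Jun and Jund, AP-1 subunits, fell by 2.003 and 1.12 on the log2 scale (adjusted p = 0.00015 and 2.1e-05). Spib, which encodes the ETS partner SPI-B, had the highest level of the list, at 462 ± 8.06 TPM in GC B cells, and was not called (-0.05, adjusted p = 0.42).

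Pou2af1 (ENSMUSG00000032053; chr9:51213690-51240079), the coactivator OCA-B, was at 914, 917 and 944 TPM among GC pools and at 263, 269 and 278 TPM among naive pools. The pools of each population lay close together, with a coefficient of variation under 3% in both. The means were 925 ± 16.2 and 270.1 ± 7.94 TPM (SD, n = 3), a 3.43-fold difference with a log2 fold change of 1.77 (SE 0.04, 95% interval 1.68 to 1.86, adjusted p = 2.9e-07). Of its DNA-binding partners, Pou2f2, encoding OCT2 (ENSMUSG00000008496; chr7:25087350-25180797), was at 106, 99.0 and 117 TPM among GC pools and at 120.2, 118 and 102 TPM among naive pools, which overlapped (log2 fold change -0.08, 95% interval -0.30 to 0.14, adjusted p = 0.48).

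Pou2f1, encoding OCT1 (ENSMUSG00000026565; chr1:165865150-166002749), was at 15.9, 19.1 and 15.6 TPM among GC pools and at 11.4, 13.2 and 9.08 TPM among naive pools. The GC pools were higher by 1.51-fold, with a log2 fold change of 0.56 (SE 0.15, 95% interval 0.20 to 0.92, adjusted p = 0.016). Without GC replicate 2, the highest pool, it was 0.47 and no longer passed (adjusted p = 0.051). The row overlaps Cd247, a T cell receptor subunit gene, which was at 7.79 TPM in GC against 5.37 TPM in naive B cells, and its part in the Pou2f1 value was not tested. OCT2 transcripts made up 86.3 ± 2.24% of the POU2 family sum in GC and 91.0 ± 0.987% in naive B cells (SD, n = 3), and Pou2f3 was at most 0.068 TPM. The Pou2f2 to Pou2f1 ratio lay between 5.20 and 7.50 in GC pools and between 8.97 and 11.2 in naive pools (difference of the log2 ratio -0.64, exact permutation p = 0.1). Pou2af1 exceeded Pou2f2 by 8.05 to 9.26 times in GC pools and by 2.19 to 2.73 times in naive pools (difference of the log2 ratio 1.85, exact permutation p = 0.1).

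**Figure D4:**
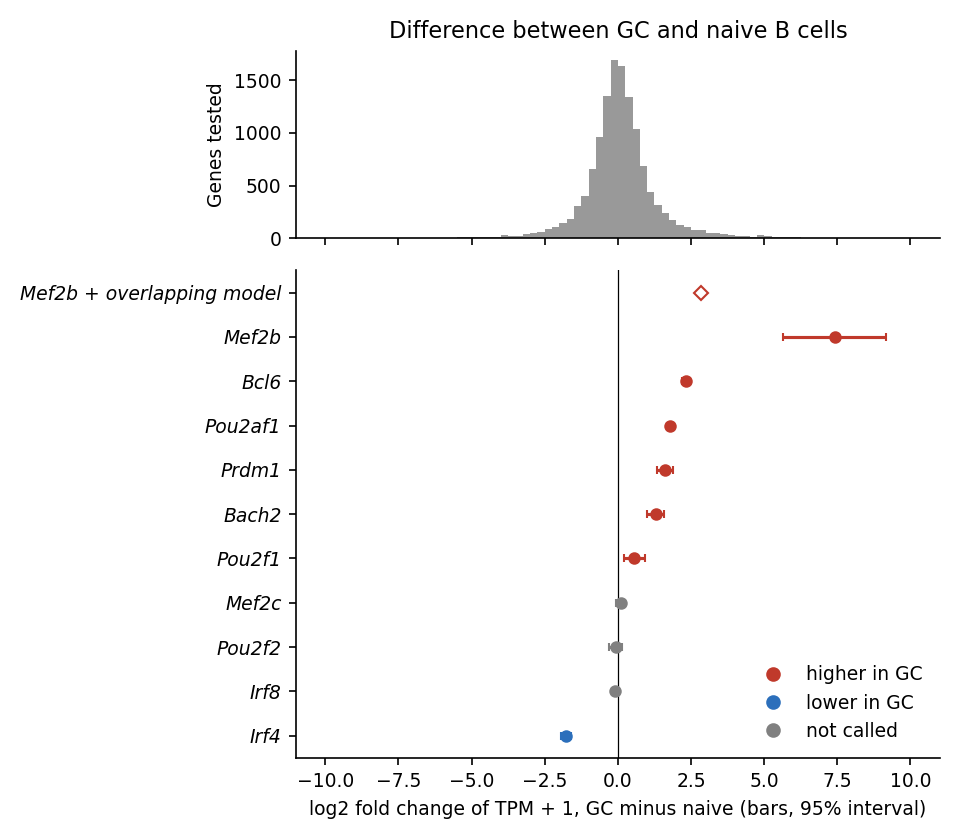
Log2 fold change of TPM + 1, GC minus naive, on the x axis of both panels. The upper panel counts the 12785 genes tested, and the lower panel gives each of the 10 regulators with its 95% interval, plus the sum of Mef2b and its overlapping model (diamond). Mef2b alone lies at 7.41 with a wide interval, its sum at 2.84, and Irf4 at -1.76.

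Prdm1 (ENSMUSG00000038151; chr10:44437174-44528558), which encodes BLIMP-1, was at 5.22, 4.69 and 5.11 TPM among GC pools and at 0.932, 0.862 and 1.07 TPM among naive pools. It was the lowest of the 10 members in both populations, yet the groups were well separated. The means were 5.01 ± 0.280 and 0.955 ± 0.107 TPM (SD, n = 3), a 5.25-fold difference with a log2 fold change of 1.62 (SE 0.12, 95% interval 1.34 to 1.899, adjusted p = 3.8e-05). At this level the added 1 TPM shrinks the change, and with 0.1 TPM in its place it was 2.28. For a transcript of 2000 bases, 1 read was worth between 0.0343 and 0.0563 FPKM, so these levels lie above the reach of a few reads. The 3 genes nearest to Prdm1 over the 6 pools were Slc35f2 (distance 0.12), Magee1 (0.14) and Dyrk3 (0.18). As for Bcl6, this distance mostly reflects the mean levels in both populations.

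Bcl6 and Prdm1, whose products repress each other, were both higher in the GC pools and by nearly the same factor. The ratio of their TPM lay between 46.3 and 53.2 in GC pools and between 43.8 and 59.8 in naive pools, and these ranges overlapped. On the log2(TPM + 1) scale the ratio differed by 0.70 (exact permutation p = 0.1), but with a pseudocount of 0.1 the difference was 0.06 (exact permutation p = 0.7), so that the larger value came with the pseudocount. Adjusted over the 6 ratios compared, the p of each was 0.1.

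Of 16 plasma cell genes, 14 were tested, of which 9 were higher in GC B cells and 5 were lower. Their median log2 fold change was 1.29. The shares over all genes tested were 35.5% higher and 30.1% lower. Igj, the joining chain of secreted IgM and IgA and the highest of the list in GC B cells, rose from 33.3 to 669 TPM (log2 fold change 4.33, adjusted p = 7.1e-06) and Slamf7, a surface receptor of plasma cells, from 18.6 to 114 TPM (2.55, adjusted p = 2.4e-07). Fkbp11, a chaperone of secretory cells, fell from 5.71 to 0.235 TPM (-2.44, adjusted p = 8.4e-05), and Irf4 fell as given above. Of the 4 genes listed here as plasma cell markers, Igj and Slamf7 were therefore higher in GC pools. Sdc1 (CD138) was lower, at between 0.927 and 1.95 TPM against between 2.62 and 3.66 TPM, and Tnfrsf17 (BCMA) was at most 0.193 TPM. The part of plasma cells in the Prdm1 value was not tested.

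Genes known to be repressed by BLIMP-1 were mixed as well. Of 7 tested, 2 were higher, 2 were lower and 3 were not called, with a median log2 fold change of -0.05. The shares over all genes tested were 35.5% higher and 30.1% lower. Bcl6 itself is among the genes that rose. Ciita, the activator of MHC class II genes, fell from 267 to 148 TPM (-0.84, adjusted p = 7.8e-05) and Pax5, the B cell identity factor, from 229 to 183 TPM (-0.31, adjusted p = 0.019).

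**Figure D5:**
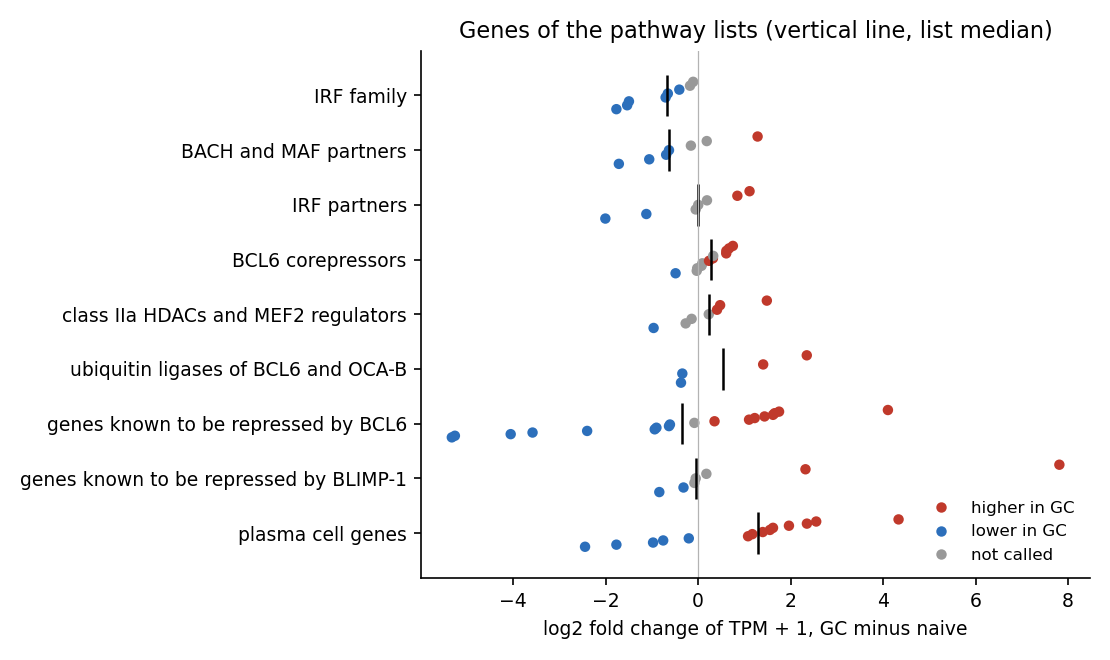
Log2 fold change of TPM + 1, GC minus naive (x axis), of every tested gene in 9 pathway lists (rows), with genes called higher in red, lower in blue and not called in gray, and a vertical line at the list median. The IRF genes lie at or under 0, and the genes known to be repressed by BCL6 are spread from -5.32 to 4.10.

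Promoters of the members, 250 bases before to 50 bases after each RefSeq start site (GRCm38.p6), were searched on both strands for the letters of 5 motifs. They gave 16 promoters for the 10 genes among 32851 in all. The octamer ATGCAAAT, which OCT1 and OCT2 bind, was in 1.74% of all promoters and in 1 of the 16, that of Mef2b, where it begins 85 bases before the start site. The 250 bases upstream of Mef2b are given because they hold that match, in capitals, on the plus strand at chr8:70152511-70152760:
Mef2b promoter: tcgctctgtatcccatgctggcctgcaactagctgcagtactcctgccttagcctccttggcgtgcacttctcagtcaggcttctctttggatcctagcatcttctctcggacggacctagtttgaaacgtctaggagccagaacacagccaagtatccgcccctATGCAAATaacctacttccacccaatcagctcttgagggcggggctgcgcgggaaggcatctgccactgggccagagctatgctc
GGAANNGAA, the composite site of an ETS factor with IRF4 or IRF8, was in 8.24% of all promoters. It was in 4 of the 16 (Bach2, Pou2f2, and start sites of Mef2c and Bcl6). These start sites lie within the gene spans. Bach2 and Pou2f2 had only 1 promoter each, so the 5′ ends of these 2 gene spans were not searched. The match in capitals begins 16 bases before a RefSeq start site within the Bach2 gene (plus strand, chr4:32417379-32417434), on the opposite strand. For Bcl6 it begins 28 bases before a start site within the gene (minus strand, chr16:23981284-23981351):
Bach2 promoter: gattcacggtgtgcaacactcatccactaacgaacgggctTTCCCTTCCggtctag
Bcl6 promoter: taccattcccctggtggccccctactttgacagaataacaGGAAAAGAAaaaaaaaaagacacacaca
AGNGAAAG, a core of BLIMP-1 sites that can overlap the composite, was in 8.63% of all promoters and in 2 of the 16, Bach2 and Mef2c, and in both promoters the match overlaps that of the composite. TTCCTAGAA, a core of BCL6 sites, was in 0.411% and in 0 of the 16, and TAAAAATA, a core of MEF2 sites, was in 2.72% and in 0 of the 16. A match of letters does not show binding, and its absence here concerns only these windows.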

How the data were processed

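Per the submitters' processing notes and the study's methods, reads were handled with CASAVA 1.8, FastQC and cutadapt 1.9 and quantified with RSEM 1.2.25 on the mouse transcriptome (NCBIm38 v75). The processing notes also name edgeR, with no version given, and its part in the FPKM values was not tested. The authors deposited FPKM per gene and pool, with no counts, and RSEM divides reads that match several gene models by an estimate. The library kit is not stated to keep strand, so that reads of overlapping genes may be shared. FPKM of each pool were rescaled to TPM by their total (717537 to 774597). Between 69.8% and 75.1% of low values lay within 0.15 of a whole read, so the depths of about 9800000 to 16000000 reads are rough and a count test was not run. Replicates are separate pools of mice per the methods, which do not say whether like-numbered GC and naive pools shared their mice. Pools were grouped by their labels and compared without pairing on log2(TPM + 1) by limma 3.58.1 (lmFit, then eBayes with a trend; R 4.3.3). The test covered 12785 genes that reached 1 TPM in 3 or more pools, and calls were made at an adjusted p (Benjamini-Hochberg) below 0.05. Fold changes on this scale understate changes of weakly expressed genes. Ratios were compared with two-sided exact permutation tests. The limma step was tested on simulated data. The labels name no batch.

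Symbols came from GENCODE M1, an older annotation than that of the files, for 33398 of 39179 identifiers. Where a symbol had 2 identifiers, that with the higher mean TPM was used. Positions and promoters are from RefSeq (GRCm38.p6). The members and lists were chosen with earlier results of these data known. Beside the members, genes were named if they belong to a member's family, had the 2 largest log2 fold changes in each direction among those called in a list, or the highest TPM of a list, and for Bcl6 and Prdm1 the 3 nearest genes were named. Some genes that fall under this rule are not reported here. Alternatives covered the pseudocount, the filter, FPKM as deposited, quantile and median-of-ratios scaling, a replicate block and omission of each pool in turn. Python 3.11.15 with pandas 2.3.3, numpy 2.4.6, scipy 1.17.1 and matplotlib 3.10.9 was used for the other steps.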

Additional observations from a re-analysis of the deposited data

How the results depend on the processing

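The calls of Bcl6, Bach2, Mef2b, Irf4, Pou2af1 and Prdm1 kept their direction and stayed past the threshold in every alternative tried. The number of members lower in GC B cells was 2 in place of 1 on FPKM as deposited, after quantile normalization and after median-of-ratios scaling, and ranged from 1 to 2 when each pool was left out, because Irf8 then passed. The log2 fold change of Mef2c was -0.040 after quantile normalization. The number of members higher ranged from 5 to 7 when each pool was left out, through Pou2f1 and Mef2c. The log2 fold change of Mef2b by its own model ranged from 6.93, without naive replicate 2, to 9.36, with a pseudocount of 0.1. The sum with the overlapping gene model gave 2.84. Quantile normalization moved the median log2 fold change of all genes from 0.03 to -0.06 and gave 4080 genes higher and 4450 lower, against 4540 and 3852. The cause of these shifts was not tested.

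GC and naive pools share the replicate numbers 1 to 3, but deviations of same-numbered pools correlated by only 0.083, 0.023 and 0.046, so the numbers were not taken as pairs, although 5 of 6 pools correlated best with their own number. With the replicate number as a block, 4342 genes were higher and 3618 lower, and the members again gave 6 higher and 1 lower. Depth is known only roughly, so no counting error is given for weakly expressed genes such as Prdm1.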
